A study of Rattus norvegicus with 40 samples.

Results

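The genes examined here make and use microRNAs: *Drosha*, *Dgcr8*, *Ddx5*, *Ddx17*, *Xpo5*, *Dicer1*, *Tarbp2*, *Ago1*, *Ago2* and *Tnrc6a*. They were taken as the probesets whose annotation gives that gene symbol alone. Of the 10 genes, 9 were measured, by 20 probesets, among 14217 named genes on the array. *Ago2*, which encodes the Argonaute that can cut its target, is not analysed here. The probeset with the highest mean log2 level over all arrays stood for a gene, and the others are given after it. The choice did not use any difference between groups.

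The RNA came from single dorsal root ganglia (DRGs), which hold the cell bodies of sensory neurons, of male Sprague-Dawley rats 4 weeks after surgery. In spinal nerve ligation (SNL) the left L5 spinal nerve is tied off distal to its DRG, so the neurons of L5 are injured and the neighbouring L4 spinal nerve is left untied. Sham rats had the operation without the ligature. No age of the rats is given by the sources used here. The 8 groups, of 5 arrays each, were ipsilateral and contralateral L5 DRGs of SNL rats, ipsilateral and contralateral L4 DRGs of SNL rats, and the same 4 kinds of DRG of sham rats. Each rat gave both sides and both segments, and each cohort held 5 rats. Ipsilateral DRGs were set against contralateral DRGs in 4 comparisons, called SNL L5, SNL L4, sham L5 and sham L4.

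A microRNA is cut from its primary transcript in the nucleus by the Microprocessor, which consists of the nuclease Drosha and its RNA-binding partner Dgcr8, with the helicases Ddx5 and Ddx17 as cofactors for some transcripts. The hairpin leaves the nucleus through exportin 5, the product of *Xpo5*, and is cut again by Dicer, the product of *Dicer1*, with its partner Tarbp2. The short RNA is then loaded onto an Argonaute protein, which recruits Tnrc6a (also called GW182) and through it the enzymes that deadenylate, decap and degrade the target mRNA. In sensory neurons this machinery is also found in axons, where mRNAs are translated locally.

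The values are MAS 5 signals on a linear scale, and fold changes are differences of log2(signal + 16), so they understate the change of a dim gene. Effects are given with their standard error (SE). A gene was called where limma gave an adjusted p under 0.05 (Benjamini-Hochberg over 31042 probesets). Signals of different genes were not compared, since probesets differ in their response. The tissue is DRG by the labels, and neuronal markers had signal in every group. The neuronal marker *Uchl1* had group means of 1543 to 3842, and no marker was at 0 on any array, although the satellite glial marker *Kcnj10* had group means of only 0.946 to 5.54. The 3′ to 5′ ratio of GAPDH moved with side. For GAPDH the 3′ probeset stands higher over the 5′ one where RNA is degraded, and the log2 ratio of the pair was higher ipsilaterally by 0.641 in SNL L5, 0.951 in SNL L4, 0.094 in sham L5 and 0.429 in sham L4. In SNL L5, SNL L4 and sham L4 this difference had the smallest p that 5 arrays against 5 allow (exact permutation test, two-sided, p = 0.00794 each), and in sham L5 it had p = 0.175. The same ratio for actin was higher ipsilaterally by 1.142 in SNL L5 (exact permutation test, p = 0.00794) and 0.773 in SNL L4 (exact p = 0.0159), and differed by 0.217 in sham L5 (exact p = 0.0556) and -0.214 in sham L4 (exact p = 0.159). With the GAPDH ratio as a covariate, an alternative chosen after seeing the data, no microRNA gene was called in SNL L5, SNL L4 or sham L4 and 4 were called in sham L5. In SNL L4 that fit called only 2 of the 14217 genes, against 2983 without the covariate. The GAPDH ratios of the sides did not overlap in SNL L5, SNL L4 and sham L4, so this fit can hardly tell side and ratio apart. Neither the lost calls nor the sizes of the fold changes settle the part of RNA quality. The standard errors of the 9 genes were wider there, as for *Xpo5* in SNL L5 (0.31 with the covariate, against 0.07 without it). Most of the fold changes called without the covariate were about as large or larger with it. With it, the log2 fold changes in SNL L5 were 0.59 for *Xpo5*, 0.63 for *Ago1*, 0.68 for *Dicer1* and 0.91 for *Dgcr8*, but 0.07 (SE 0.42) for *Drosha* and 0.09 (SE 0.41) for *Ddx17*. They were in SNL L4 -0.65 for *Ago1*, -0.42 for *Ddx5* and -1.32 for *Ddx17*, and in sham L4 0.31 for *Ddx5* and -0.12 for *Ago1*. The bacterial control level was higher ipsilaterally by 0.307, 0.806, 1.13 and 1.063 on the log2 scale in SNL L5, SNL L4, sham L5 and sham L4. In SNL L5 its sides overlapped (exact permutation test, p = 0.333), and in the others it had exact p = 0.00794 each. The array median signal was higher ipsilaterally by 6.058, 4.97, 7.122 and 5.555 in SNL L5, SNL L4, sham L5 and sham L4. The SNL L5 arrays carry another array series name than the other 30, so a level in SNL L5 and a level elsewhere differ in series as well as in tissue. Within a series the array names are numbered group by group, with the ipsilateral arrays of each comparison before its contralateral ones. Side and place in that numbering therefore cannot be told apart in any of the 4 comparisons.

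Most calls among the microRNA genes were toward higher levels in the ligated L5 DRG, and all were toward lower levels in the L4 DRG beside it. In SNL L5, 5 of the 9 measured genes were called higher, namely *Xpo5*, *Dicer1*, *Ago1*, *Dgcr8* and *Drosha*, and *Ddx17* was called lower. Among all genes 35.4% were called higher and 19% lower in that comparison. In SNL L4 no member was called higher and 3 were called lower, *Ago1*, *Ddx17* and *Ddx5*, beside 11% of all genes called higher and 10% called lower. In sham L5 *Ddx5* was called higher, and *Dgcr8*, *Tnrc6a*, *Ddx17* and *Ago1* were called lower, where 21.4% of all genes were called higher and 28.2% lower. In sham L4 *Ddx5* was called higher and *Ago1* lower, where 12.8% of all genes were called higher and 13.7% lower. The median log2 fold change of the 9 genes was 0.27 in SNL L5, -0.20 in SNL L4, -0.15 in sham L5 and -0.01 in sham L4. Over all genes the medians were 0.13, 0.07, -0.03 and 0.01 in SNL L5, SNL L4, sham L5 and sham L4. The shares of genes called in sham rats were above those of SNL L4, so differences between the sides were common without a ligature.

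The counts of each direction depended on the scaling. Scaling the arrays to equal medians in place of the deposited scaling shifted the median over all genes by -0.13 in SNL L5, -0.10 in SNL L4, -0.25 in sham L5 and -0.18 in sham L4 on the log2 scale. Relative to that centre 3 of the 9 genes were called higher and 4 lower in SNL L5, 0 higher and 4 lower in SNL L4, 0 higher and 6 lower in sham L5, and 0 higher and 5 lower in sham L4. Of the 14217 genes, 3002 were then called higher and 3986 lower in SNL L5, 739 higher and 2198 lower in SNL L4, 1544 higher and 8058 lower in sham L5, and 894 higher and 5398 lower in sham L4. The microRNA genes called lower with that scaling but not with the deposited one were *Ddx5*, *Tarbp2* and *Tnrc6a* in SNL L5, *Tnrc6a* in SNL L4, *Drosha* and *Xpo5* in sham L5, and *Drosha*, *Ddx17*, *Xpo5* and *Tnrc6a* in sham L4. After quantile normalization the counts were 4 higher and 1 lower in SNL L5, 0 higher and 3 lower in SNL L4, 0 higher and 3 lower in sham L5, and 1 higher and 0 lower in sham L4. Over all genes they were 3976 higher and 2988 lower in SNL L5, 1333 higher and 1434 lower in SNL L4, 1600 higher and 3888 lower in sham L5, and 1010 higher and 1535 lower in sham L4.

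**Figure D1:**
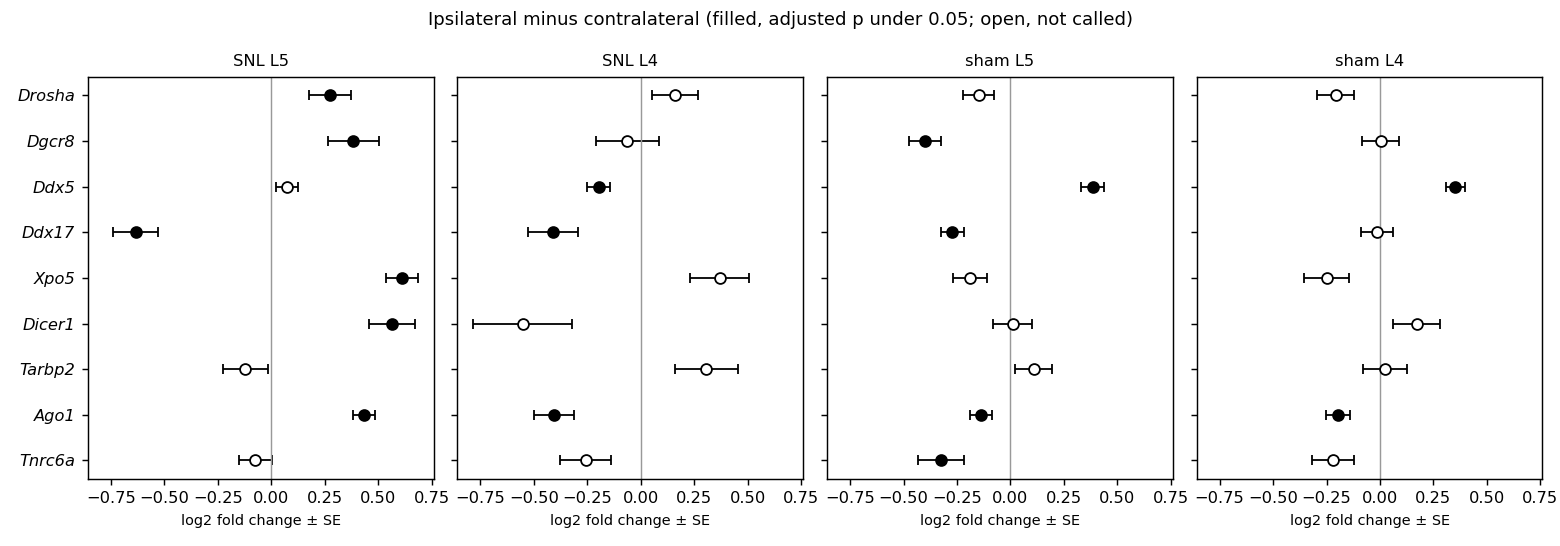
Log2 fold change of each gene on the log2(signal + 16) scale, ipsilateral minus contralateral, in each of the 4 comparisons. Points are the fitted values with their standard errors (5 arrays against 5), filled where the adjusted p from limma was under 0.05. *Ago1* lies at 0.43 in SNL L5 and at -0.41 in SNL L4, and *Ddx17* lies at -0.63 in SNL L5.

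The Argonaute gene *Ago1*, whose protein holds the microRNA in the silencing complex, was called in all 4 comparisons. In the ligated L5 DRG its signals in rats 4, 8, 9, 18 and 48 were 286, 295, 261, 279 and 273 on the ipsilateral side, against 207, 193, 199, 202 and 210 on the contralateral side. The lowest ipsilateral array, at 261, was well above the highest contralateral one. The log2 fold change was 0.43 (SE 0.05, limma adjusted p = 2.58e-06), or 1.35-fold in signal + 16. In L4 of these rats the signals were 121, 109, 104, 127 and 107 on the ipsilateral side, against 181, 156, 148, 146 and 148 on the contralateral side. Here every ipsilateral array lay below every contralateral one, at a log2 fold change of -0.41 (SE 0.09, limma adjusted p = 0.00421). In these comparisons 40.7% of all genes in SNL L5 and 16.2% in SNL L4 had sides that did not overlap, and so had 4 and 2 of the 9 microRNA genes.

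In sham rats the *Ago1* values lay closer together. In L4 of rats 1, 14, 17, 22 and 23 its signals were 176, 180, 186, 181 and 167 on the ipsilateral side, against 209, 200, 218, 196 and 208 on the contralateral side, with no overlap. The log2 fold change was -0.20 (SE 0.06, limma adjusted p = 0.0191). The groups just overlapped in sham L5, at 175 to 199 against 199 to 219, with a log2 fold change of -0.14 (SE 0.05, limma adjusted p = 0.0378). Neither sham call was firm. The sham L4 call was lost after quantile normalization (-0.09), and also when the contralateral array of rat 17 was left out (adjusted p = 0.0538). In sham L5 the log2 fold change was 0.03 after quantile normalization, and the call was lost without the ipsilateral array of rat 14, 17 or 22 or the contralateral array of rat 1, 14 or 17, at adjusted p of 0.0519 to 0.1. It was also lost with the rat as a block (adjusted p = 0.0673). Ranked by mean over the 8 groups, *Ago1* was highest in ipsilateral L5 DRGs of SNL rats (279 ± 12.7, SD, n = 5), above every array of every other group, and lowest in their ipsilateral L4 DRGs (114 ± 10.02, SD, n = 5), below every array of the others. The 5 groups between 178 and 206 overlapped their neighbours in that order.

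By its brightest probeset, *Tnrc6a*, which encodes the scaffold that Argonaute recruits, was called in sham L5 alone. Its signals there were 134, 112, 109, 103 and 84.5 on the ipsilateral side, against 121, 132, 181, 130 and 136 on the contralateral side. The array of rat 17, at 181, stood above the rest, and the sides overlapped in the ipsilateral array of rat 1. The log2 fold change was -0.33 (SE 0.11, limma adjusted p = 0.0193). The call was lost without that array of rat 17 (adjusted p = 0.0531) and after quantile normalization (-0.18). In the other comparisons the log2 fold changes were -0.08 in SNL L5, -0.26 in SNL L4 and -0.22 in sham L4, none called. In SNL L5 the ipsilateral signals lay between 84.8 and 90.0, inside the contralateral range of 79.3 to 107. In sham L4 it was called once the contralateral array of rat 1 was removed (-0.28, adjusted p = 0.0343). The second *Tnrc6a* probeset was nearly as bright, with a mean of 90.8 over all arrays against 106 for the brightest. That probeset was called lower in SNL L5 (-0.53), SNL L4 (-0.43), sham L5 (-0.45) and sham L4 (-0.32), each time without overlap of the sides.

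*Xpo5*, the exporter of the hairpin, had the highest positive log2 fold change of the 9 genes in the ligated L5 DRG. Its ipsilateral signals were 85.8, 90.3, 99.4, 95.1 and 95.5, against 50.7, 57.7, 54.7, 59.3 and 54.8 on the contralateral side. The sides did not overlap, and the log2 fold change was 0.61 (SE 0.07, limma adjusted p = 2.56e-06), or 1.53-fold. In SNL L4 the signals were 69.6, 63.6, 72.6, 92.4 and 80.0 on the ipsilateral side, against 55.7, 40.3, 59.6, 67.5 and 52.6 on the contralateral side. Only the highest contralateral array reached into the ipsilateral range, and the log2 fold change of 0.37 (SE 0.14) was not called (limma adjusted p = 0.0716). With probesets under the median level left out the same value was called (adjusted p = 0.04).

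In sham rats *Xpo5* had lower ipsilateral means that were not called. They were 67.4 ± 7.73 in ipsilateral and 79.1 ± 7.90 in contralateral sham L5 DRGs, and 67.8 ± 10.5 in ipsilateral and 83.5 ± 11.98 in contralateral sham L4 DRGs (SD, n = 5). The log2 fold change was -0.19 in sham L5 (adjusted p = 0.0608) and -0.25 in sham L4 (adjusted p = 0.0906). They were called without the ipsilateral array of rat 23 in sham L4 (adjusted p = 0.0444), and in sham L5 without either the ipsilateral array of rat 1 or its contralateral counterpart of rat 23 (adjusted p = 0.0468 and 0.0375 in turn). The contralateral DRGs of SNL rats had the lowest group means, 55.4 ± 3.30 in L5 and 55.1 ± 9.999 in L4 (SD, n = 5), and each group overlapped its neighbours in the order of means.

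*Dicer1* encodes the nuclease that cuts the exported hairpin. It was dim, with a mean under the median of all probesets. In SNL L5 its signals were 27.7, 33.4, 36.7, 39.3 and 30.7 on the ipsilateral side, against 21.9, 16.6, 15.8, 15.2 and 17.7 on the contralateral side. All ipsilateral arrays lay above all contralateral ones, with a log2 fold change of 0.57 (SE 0.11, limma adjusted p = 0.00034). In SNL L4 the ipsilateral signals were 23.8, 15.3, 0.547, 15.9 and 14.8, against 25.8, 24.8, 13.5, 34.1 and 38.4 on the contralateral side. The ipsilateral array of rat 9 was close to 0, the sides overlapped, and the log2 fold change of -0.55 (SE 0.23) was not called (limma adjusted p = 0.11). In the fit of all 8 groups, which shares the spread of the steadier groups, it was called (adjusted p = 0.00296). In sham rats the means were 19.7 ± 3.16 in ipsilateral and 19.4 ± 3.24 in contralateral L5 DRGs, and 19.0 ± 2.55 in ipsilateral and 15.1 ± 2.66 in contralateral L4 DRGs (SD, n = 5), with no call. Its direction in sham L5 depended on the scaling, since quantile normalization gave -0.27 (adjusted p = 0.0268).

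*Tarbp2*, the double-stranded RNA-binding partner of Dicer, was not called in any of the 4 comparisons. Its log2 fold changes were -0.12 in SNL L5, 0.31 in SNL L4, 0.11 in sham L5 and 0.02 in sham L4. In SNL L5 the means were 73.5 ± 11.7 in ipsilateral and 81.1 ± 11.3 in contralateral DRGs, and in SNL L4 they were 98.5 ± 19.8 in ipsilateral and 76.3 ± 15.5 in contralateral DRGs (SD, n = 5). Sham L5 had means of 92.7 ± 12.97 in ipsilateral and 84.5 ± 8.43 in contralateral DRGs, and sham L4 had 95.3 ± 16.4 in ipsilateral and 92.9 ± 10.4 in contralateral DRGs. All 4 pairs of sides overlapped. Whether SNL L4 was called depended in part on the ipsilateral array of rat 48, which read 64.9 where the other 4 read 102 to 117. Without it the log2 fold change was 0.43 (limma adjusted p = 0.0312). With every array kept, the value of 0.31 was called in the fit of all 8 groups (limma adjusted p = 0.0435).

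The Microprocessor genes did not share a pattern. *Dgcr8*, the RNA-binding subunit, rose in the ligated L5 DRG and fell in the operated L5 DRG of sham rats. Its SNL L5 signals were 85.1, 75.8, 87.8, 71.6 and 95.7 on the ipsilateral side, against 61.5, 41.6, 65.3, 81.2 and 54.4 on the contralateral side. Only the contralateral array of rat 18, at 81.2, reached the ipsilateral range, and the log2 fold change was 0.38 (SE 0.12, limma adjusted p = 0.0127). Quantile normalization (0.28, adjusted p = 0.0783) and scaling to equal medians (0.21, adjusted p = 0.183) both ended the call, as did the methods' t-test after Benjamini-Hochberg adjustment (adjusted p = 0.0555). In sham L5 the signals were 76.9, 62.0, 75.7, 70.0 and 64.7 on the ipsilateral side, against 96.1, 92.1, 104, 85.5 and 109 on the contralateral side. The sides did not overlap there, as in 32.8% of all genes in sham L5, and the log2 fold change was -0.40 (SE 0.07, limma adjusted p = 0.000439). In SNL L4 it averaged 75.1 ± 10.5 in ipsilateral and 80.5 ± 20.4 in contralateral DRGs, and in sham L4 79.8 ± 9.74 in ipsilateral and 79.3 ± 4.01 in contralateral DRGs (SD, n = 5).

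*Drosha*, the nuclease of the Microprocessor, was called in SNL L5 alone. Its signals were 174, 213, 254, 224 and 237 on the ipsilateral side, against 154, 219, 164, 200 and 163 on the contralateral side. The ranges overlapped widely, and the log2 fold change was 0.27 (SE 0.10, limma adjusted p = 0.0313). It was 0.07 after scaling to equal medians, and the call was lost without the ipsilateral array of rat 9, 18 or 48 or the contralateral array of rat 4, 9 or 48 (adjusted p = 0.0585 to 0.0873). In the other comparisons its log2 fold changes were 0.16 in SNL L4, -0.15 in sham L5 and -0.21 in sham L4. The sham values were called without the ipsilateral array of rat 14 in L5 (-0.21, adjusted p = 0.016) and in L4 when that of rat 1 on the contralateral side was left out (-0.28, adjusted p = 0.0129).

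*Ddx17* encodes a DEAD-box helicase of the Microprocessor. In SNL L5 its signals were 103, 130, 83.8, 93.3 and 70.6 on the ipsilateral side, against 155, 145, 164, 153 and 160 on the contralateral side. Every ipsilateral array lay below every contralateral array, and the log2 fold change was -0.63 (SE 0.11, limma adjusted p = 8.92e-05), the only call toward lower levels among the 9 genes there. With the GAPDH ratio as a covariate it was 0.09 (SE 0.41). In SNL L4 it also fell, with 74.7, 93.3, 105, 88.1 and 70.3 on the ipsilateral side, against 124, 98.4, 116, 138 and 121 on the contralateral side. The sides overlapped in 1 ipsilateral and 1 contralateral array, and the log2 fold change of -0.41 (SE 0.12, limma adjusted p = 0.019) lost its call when rat 18's contralateral array was left out (adjusted p = 0.0595).

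The fall of *Ddx17* in sham L5 was smaller but steadier. The signals were 99.2, 108, 96.7, 91.9 and 98.0 on the ipsilateral side, against 122, 121, 125, 117 and 127 on the contralateral side, with no overlap. The log2 fold change was -0.27 (SE 0.06, limma adjusted p = 0.000898). In sham L4 the means were 116 ± 4.53 in ipsilateral and 118 ± 13.4 in contralateral DRGs (SD, n = 5), with no call.

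*Ddx5*, the paralog of *Ddx17*, was called higher in both sham comparisons. In sham L4 its signals were 1239, 1191, 1290, 1224 and 1273 on the ipsilateral side, against 1002, 965, 932, 1008 and 945 on the contralateral side. The sides did not overlap, as in 17.4% of all genes in sham L4, and the log2 fold change was 0.35 (SE 0.05, limma adjusted p = 5.17e-05). In sham L5 the signals were 1155, 1301, 1193, 1393 and 1275 on the ipsilateral side, against 976, 1004, 931, 974 and 925 on the contralateral side. The sides again did not overlap, and the log2 fold change was 0.39 (SE 0.05, limma adjusted p = 4.25e-05). Both sham values kept their sign but lost their call after scaling to equal medians, at 0.12 and 0.07, and the sham L5 value did so after quantile normalization (0.14).

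In SNL L4 *Ddx5* was lower, with 1307, 1302, 1304, 1241 and 1313 on the ipsilateral side, against 1517, 1403, 1567, 1369 and 1575 on the contralateral side. The lowest contralateral array, at 1369, was above the highest ipsilateral one, and the log2 fold change was -0.20 (SE 0.05, limma adjusted p = 0.0149). Without the intensity trend in limma the call was lost (adjusted p = 0.127). In SNL L5 the means were 1531 ± 36.6 in ipsilateral and 1456 ± 80.8 in contralateral DRGs (SD, n = 5), with no call, and the log2 fold change of 0.07 became -0.14 after scaling to equal medians (adjusted p = 0.0467). The second *Ddx5* probeset was called higher there (0.29, limma adjusted p = 0.000127), with no overlap of the sides. By the brightest probeset the contralateral sham groups had the lowest means of the 8 groups, 970 ± 33.9 in L4 and 962 ± 33.4 in L5 (SD, n = 5), and no array of another group was as low. *Ddx5* and *Ddx17* are close relatives, and whether their probes tell them apart was not tested.

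**Figure D2:**
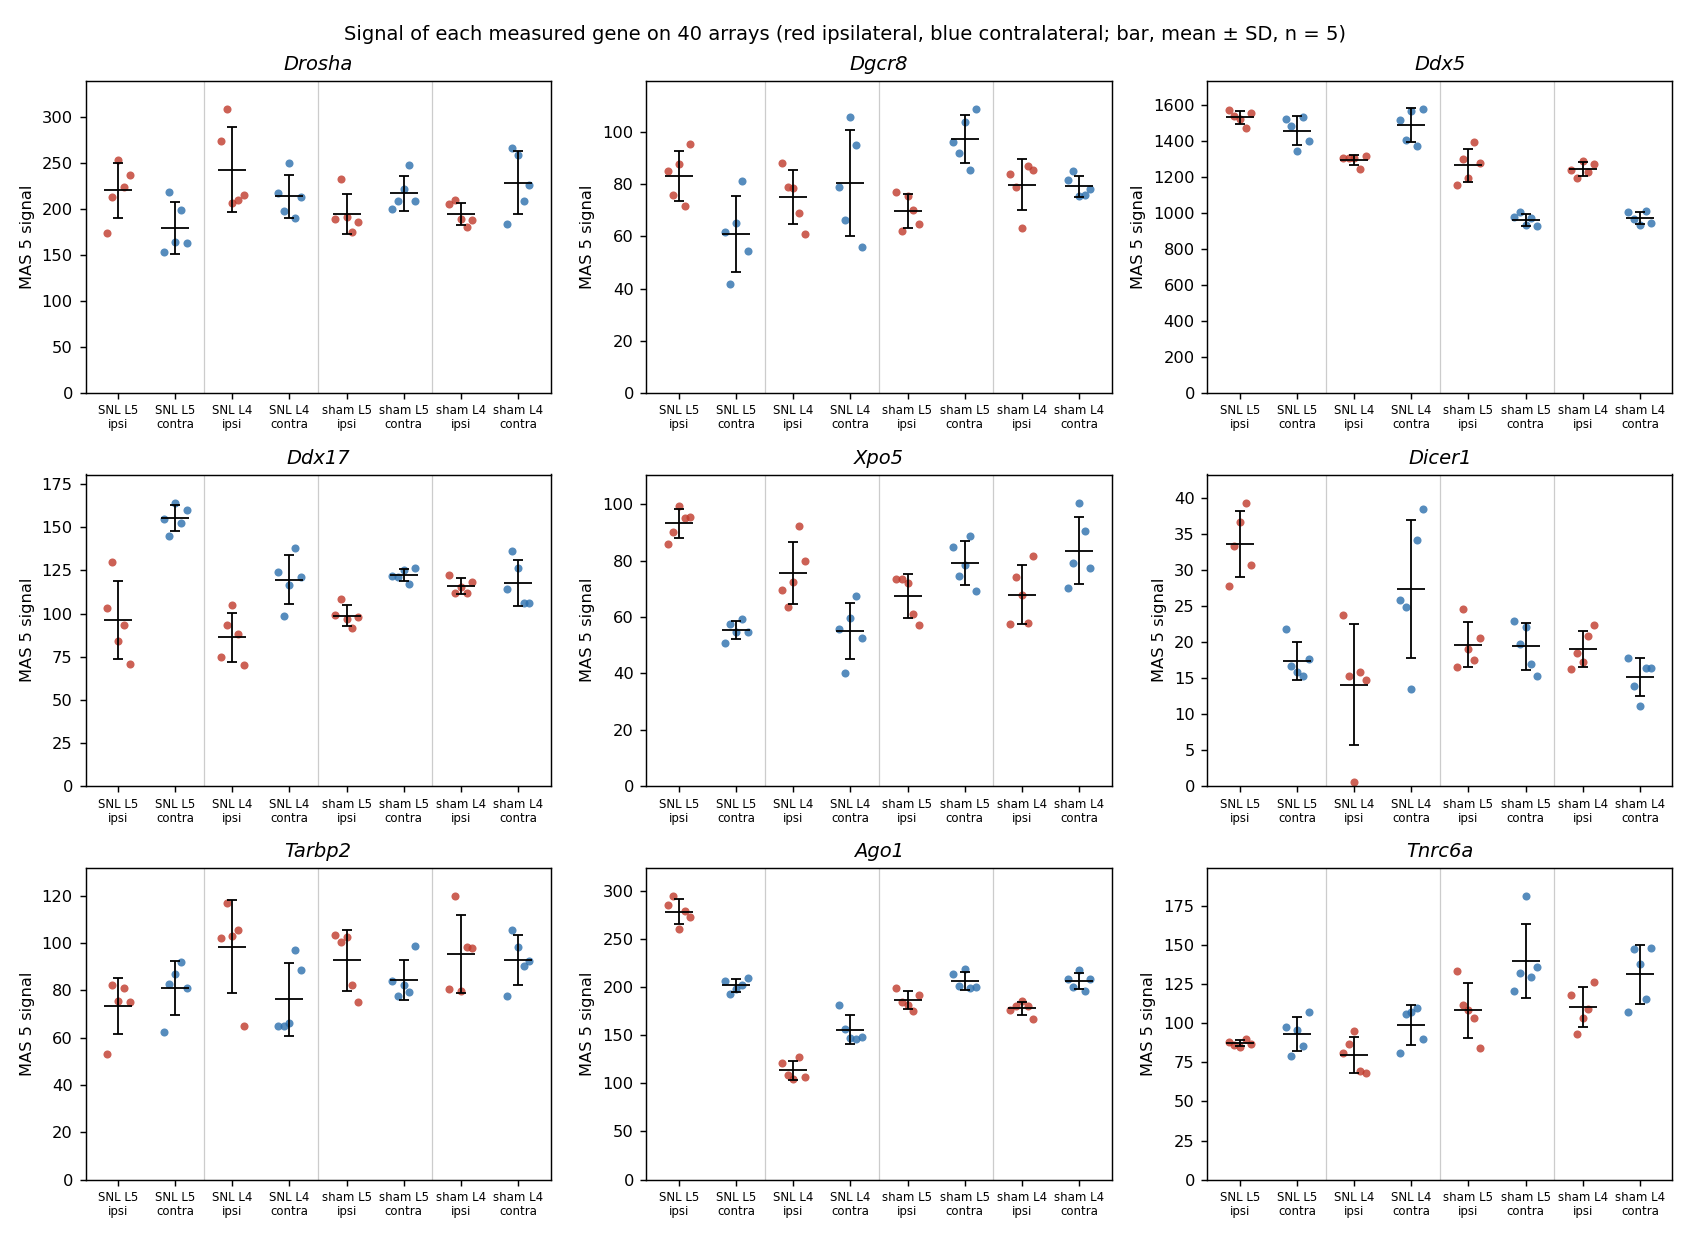
MAS 5 signal (linear axis from 0) of each measured gene on each of the 40 arrays, by group. Points are arrays in the order of rat number, red for ipsilateral and blue for contralateral DRGs, with black bars for the mean and SD (n = 5). *Ago1* has ipsilateral SNL L5 signals of 261 to 295, and no array of the other groups reaches them.

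Markers of the cells of the DRG also moved with side. In SNL L5 the summed signal of 9 sensory neuron markers was 12490 to 14280 in ipsilateral, against 15890 to 20010 in contralateral L5 DRGs of SNL rats, with 2 of the 9 called higher and 6 lower. The summed signal of 6 macrophage markers was 653 to 726 in ipsilateral, against 201 to 234 in contralateral DRGs, and 5 of the 6 were called higher. For 5 fibroblast markers it was 7797 to 9040 in ipsilateral, against 2469 to 2715 in contralateral DRGs, and all 5 were called higher. All 5 Schwann cell markers were called higher there too. In bulk tissue fewer cells of a type and less RNA per cell cannot be told apart.

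The other comparisons had marker shifts of their own. In SNL L4 the neuronal markers summed to 27280 to 31210 in ipsilateral, against 23090 to 25010 in contralateral DRGs, with 6 of the 9 called higher and 1 lower. There 5 fibroblast markers summed to 5716 to 5997 in ipsilateral, against 3400 to 3804 in contralateral DRGs, with 4 of the 5 called higher, and 3 of 5 Schwann cell markers were called higher. The sum of 4 blood cell markers was 918 to 1156 in ipsilateral, against 2785 to 3164 in contralateral DRGs, with 3 of the 4 called lower. In sham L4 the neuronal sum was 21490 to 23110 in ipsilateral, against 13550 to 16060 in contralateral DRGs, with 7 of the 9 called higher and 0 lower. In sham L5 it was 16240 to 20470 in ipsilateral, against 10640 to 12020 in contralateral DRGs, with 7 called higher and 1 lower. The part of these markers in the values of the microRNA genes was not tested.

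Whether the effect of side differed between cohorts and segments was tested directly. The SNL L5 arrays are of another array series than the rest. The cohort difference at L5 and the difference between segments therefore set side effects from different series against each other. In these, series cannot be told apart from cohort or segment. Between SNL and sham rats at L5, the difference of the side effects was called for 7 of the 9 genes, where 50.3% of all genes were called. It was positive for *Xpo5* (0.80, SE 0.10, limma adjusted p = 5.45e-07), *Dgcr8* (0.78, SE 0.15, adjusted p = 7.54e-05), *Ago1* (0.57, adjusted p = 1.89e-07), *Dicer1* (0.56, adjusted p = 0.00133) and *Drosha* (0.42, adjusted p = 0.0111). It was negative for *Ddx17* (-0.36, adjusted p = 0.0211) and *Ddx5* (-0.31, adjusted p = 0.000951). For *Ddx17*, which was called lower in both cohorts, the fall was thus larger in SNL rats. *Tarbp2* and *Tnrc6a* were not called, at -0.23 (SE 0.14) and 0.25 (SE 0.13), and *Tnrc6a* was called without the ipsilateral array of sham rat 1 (0.32, adjusted p = 0.0479). The calls of *Drosha* and *Ddx5* were lost after quantile normalization and that of *Ddx17* after scaling to equal medians. With all probesets of a gene averaged, *Dgcr8*, which has a single probeset, was the only gene called. Among the dimmer probesets only the second of *Xpo5* was called, against the direction of the brighter one (-0.47, limma adjusted p = 0.00443). The second *Ddx5* probeset gave 0.05 (limma adjusted p = 0.649), so it did not show the difference of the first.

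At L4 the difference between SNL and sham rats was called for 2 of the 9 genes, where 16.7% of all genes were called. *Ddx5* differed by -0.55 (SE 0.07, limma adjusted p = 1.44e-06), being lower on the ipsilateral side in SNL rats and higher in sham rats. *Xpo5* differed by 0.62 (SE 0.17, adjusted p = 0.0133), though neither of its L4 effects was called alone. Its second probeset gave 0.05 (limma adjusted p = 0.931), and the call was lost with its probesets averaged (0.33, limma adjusted p = 0.154). The values of *Dicer1* (-0.72, SE 0.26, adjusted p = 0.0645) and *Ddx17* (-0.40, SE 0.14, adjusted p = 0.0532) lay near the threshold. *Dicer1* was called with the rat as a block (adjusted p = 0.0256), and when the fit left out the contralateral array of SNL rat 9 or the ipsilateral array of SNL rat 4 (adjusted p = 0.0234 and 0.0266 in turn). *Ddx17* was called without the ipsilateral array of SNL rat 8 or 9, the contralateral array of SNL rat 8 or the contralateral array of sham rat 14 (adjusted p = 0.0198 to 0.0463). *Drosha*, at 0.37 (adjusted p = 0.101), was called without the contralateral array of sham rat 1 (adjusted p = 0.038). The fall of *Ago1* in SNL L4 was not shown to differ from its fall in sham L4 (-0.21, SE 0.10, adjusted p = 0.192), though after quantile normalization the difference was -0.47 (adjusted p = 0.00663).

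Between L5 and L4 in the same SNL rats, 3 of the 9 genes were called, where 25.4% of all genes were called. *Dicer1* differed by 1.12 (SE 0.26, limma adjusted p = 0.00246), *Ago1* by 0.84 (SE 0.10, adjusted p = 2.01e-07) and *Ddx5* by 0.27 (SE 0.07, adjusted p = 0.00762). All 3 side effects were more positive in L5 than in L4. The call of *Ddx5* was lost after quantile normalization (0.13) and scaling to equal medians (0.19), and that of *Dicer1* with its probesets averaged (0.41, adjusted p = 0.1). *Dgcr8*, at 0.45 (adjusted p = 0.118), was called without the contralateral L4 array of rat 48 (adjusted p = 0.0431). *Tarbp2*, at -0.43 (adjusted p = 0.123), was called without the ipsilateral L4 array of rat 48 (adjusted p = 0.0224). *Xpo5* and *Ddx17* had effects of the same sign in both segments, and their differences were 0.24 (SE 0.15) and -0.22 (SE 0.16), not called.

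**Figure D3:**
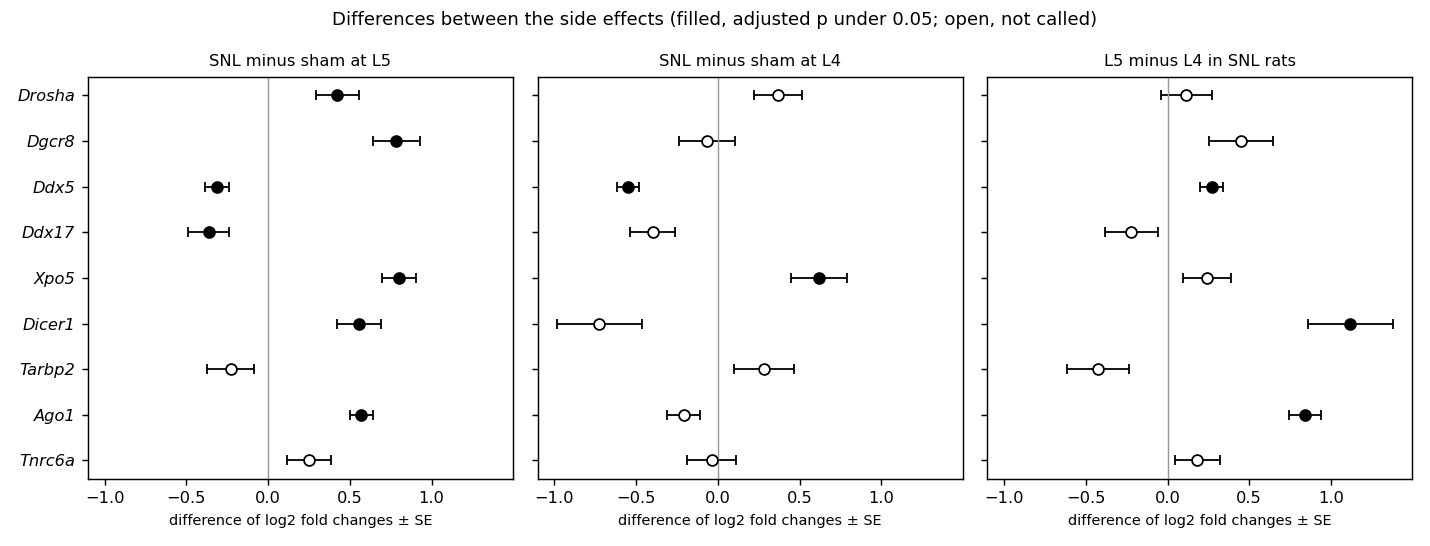
Difference of the ipsilateral minus contralateral log2 fold changes between SNL and sham rats at L5, between SNL and sham rats at L4, and between the L5 and L4 segments of SNL rats. Points are fitted values with standard errors (20 arrays each), filled where the adjusted p from limma was under 0.05. At L5 the value of *Xpo5* is 0.80 and that of *Dgcr8* is 0.78, and between segments *Dicer1* lies at 1.12 and *Ago1* at 0.84.

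The other probesets of these genes often differed from the brightest, and 7 of the 9 genes had more than 1. The second *Ddx5* probeset had the sign of the first in all 4 comparisons. In SNL L4 it averaged 758 ± 32.5 in ipsilateral and 999.6 ± 34.7 in contralateral DRGs (SD, n = 5), a log2 fold change of -0.39 (SE 0.05, limma adjusted p = 3.27e-05). It was also called in SNL L5, with 1281 ± 63.0 in ipsilateral and 1041 ± 39.0 in contralateral DRGs (0.29, adjusted p = 0.000127), and in sham L5 (0.25, adjusted p = 0.00141).

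*Tnrc6a* had 4 probesets that split. The second was called lower in all 4 comparisons, at -0.53 in SNL L5, -0.43 in SNL L4, -0.45 in sham L5 and -0.32 in sham L4, and its sides did not overlap in any of them. In SNL L5 it averaged 67.6 ± 9.28 in ipsilateral and 104 ± 5.61 in contralateral DRGs (SD, n = 5, limma adjusted p = 5.89e-05). The third, which averaged under 10 in 6 of the 8 groups, was called higher in sham L5 (0.37), and the fourth was called lower in SNL L5 (-0.26).

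For *Ago1* the second and the third probesets, with group means of 9.21 to 32.0, shared the sign of the first in SNL L5 and SNL L4 with no call, and opposed it in sham rats. The second was called higher in sham L4, at 21.6 ± 3.53 in ipsilateral and 11.2 ± 1.79 in contralateral DRGs (SD, n = 5; log2 fold change 0.47, limma adjusted p = 0.00499). In sham L5 the second (0.33, adjusted p = 0.0146) and the third (0.24, adjusted p = 0.0158) were called higher. The second *Xpo5* probeset was called lower in SNL L5, at 12.4 ± 2.65 in ipsilateral and 20.5 ± 3.66 in contralateral DRGs (SD, n = 5; -0.36, adjusted p = 0.0135), against the rise of the brighter one. The second *Dicer1* probeset was called higher in sham L5 only (0.21), and the second of *Ddx17* and both dimmer ones of *Drosha* were not called. When all probesets of a gene were averaged, the calls of *Xpo5* and *Drosha* in SNL L5, of *Ago1* and *Ddx17* in SNL L4, of *Ago1* and *Tnrc6a* in sham L5 and of *Ago1* in sham L4 were lost. *Ago1* then stood at 0.14 in sham L5 and 0.12 in sham L4, and *Ddx5* and *Tnrc6a* were called in SNL L5 at 0.18 and -0.21. Which transcripts each probeset detects was not tested.

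**Figure D4:**
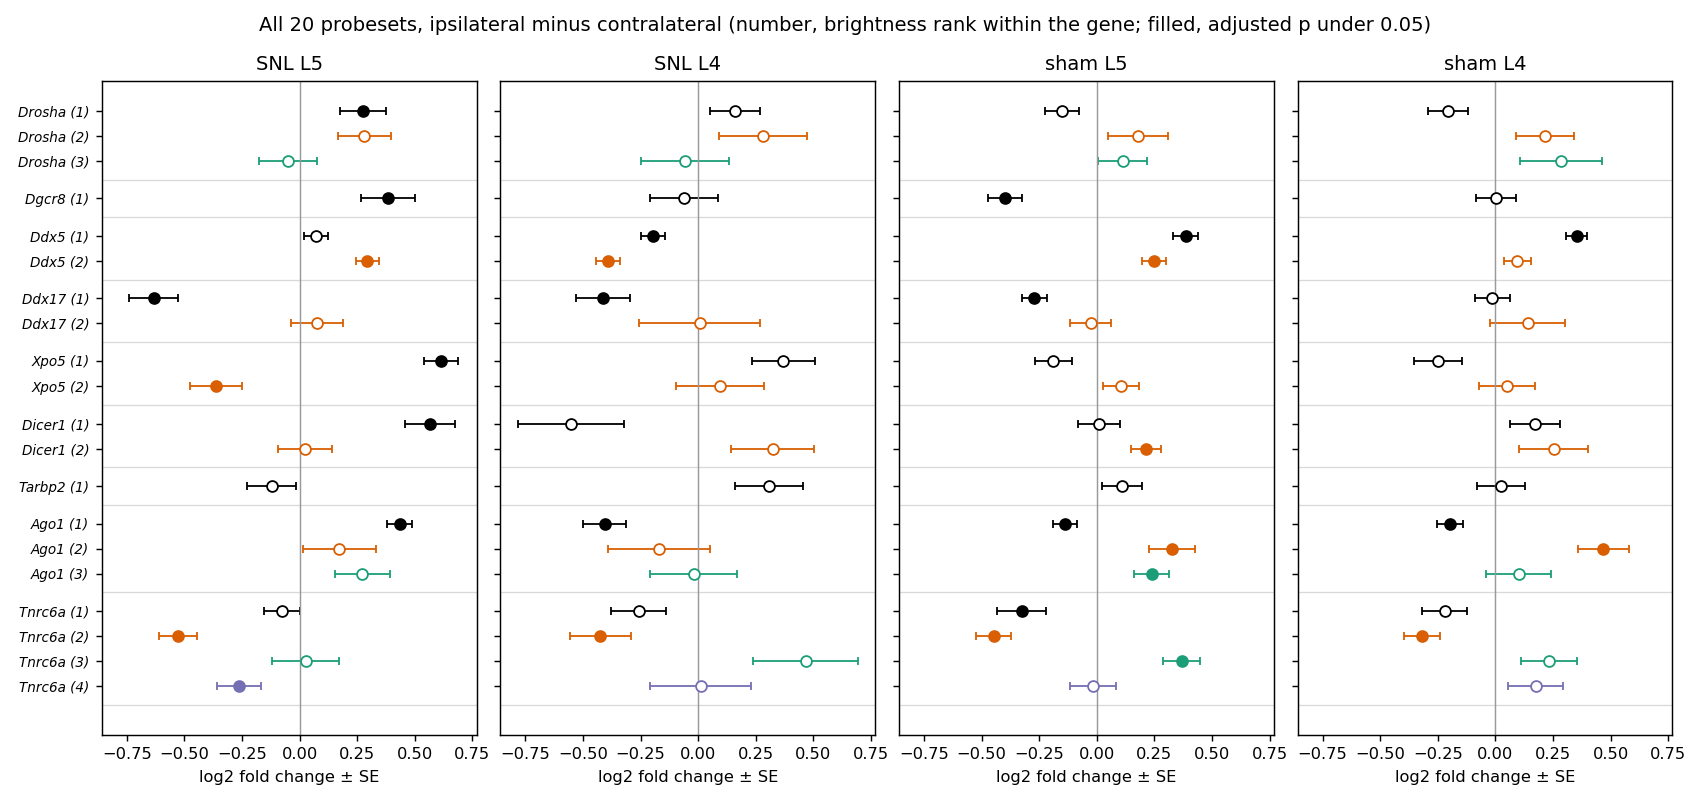
Log2 fold change with its SE of all 20 probesets, ipsilateral minus contralateral, in the 4 comparisons. The number after a gene is the rank of the probeset by mean level within that gene, and filled points had an adjusted p from limma under 0.05. In SNL L5 the *Xpo5* probesets lie at 0.61 and -0.36, and the second *Tnrc6a* probeset lies left of 0 in all 4 panels.

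Few pairs of the 9 genes varied together. Over the 40 arrays, none of the 36 pairs of genes had a Pearson correlation above 0.5, and the median was 0.022. These arrays share groups, rats and scaling, so the values are a description. The highest was 0.461, between *Dicer1* and *Ago1*, and the lowest was -0.738, between *Ddx5* and *Tnrc6a*. After the group means were taken out, the pairs ran from -0.424 (*Ddx5* with *Tarbp2*) to 0.384. Among 8935 genes above the median level, those with the profile most like *Ago1* were *Cnp*, *Slc44a1* and *Pkn2* (r = 0.949, 0.93 and 0.93 over 40 arrays). For *Ddx5* they were *Zfyve1*, *Nars2* and *Vgll3* (0.923, 0.918 and 0.911), for *Ddx17* *Gpx4*, *Dcaf8* and *Tmem181* (0.776, 0.771 and 0.75), and for *Dgcr8* *Zmym6*, *Pxdc1* and *Bod1* (0.676, 0.67 and 0.65).

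Beyond the 9 genes, 42 of 52 other listed genes of the microRNA pathway were measured. In SNL L5, 19 were called higher and 2 lower, with a median log2 fold change of 0.11, where 35.4% of all genes were called higher and 19% lower and the median over all genes was 0.13. In SNL L4, 2 were called higher and 5 lower, beside 11% and 10% of all genes. In sham L5 8 were called higher and 13 lower, beside 21.4% and 28.2% of all genes, and in sham L4 7 higher and 4 lower, beside 12.8% and 13.7%. The groups by role below are small, and their counts are read against the same shares. The medians were 0.04 in SNL L4, -0.12 in sham L5 and -0.04 in sham L4.

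Among the nuclear cofactors and export factors (8 measured), 4 were called higher in SNL L5. They were *Srrt* (0.50), which links the cap-binding complex to the Microprocessor, *Hnrnpa2b1* (0.40), a reader of primary microRNA transcripts, *Hnrnpa1* (0.38), which binds the loop of some hairpins, and *Ran* (0.31), the GTPase that exportins need. *Hnrnpa1* was called higher in all 4 comparisons, with 1974 ± 103 in ipsilateral and 1519 ± 115 in contralateral SNL L5 DRGs (SD, n = 5). In SNL L4 *Hnrnpa1* rose (0.37), and *Tardbp* (-0.34), which binds Microprocessor and Dicer complexes, and *Xpo1* (-0.28), another exportin, fell. In sham L4 *Hnrnpa1* (0.51) and *Adar* (0.19), an editor of double-stranded RNA, rose. In sham L5 *Hnrnpa1* (0.59) and *Khsrp* (0.44), which binds the loop of some precursors, rose and *Srrt* (-0.54) and *Adar* (-0.36) fell.

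Among the partners of Dicer and the loading factors (5 measured), *Prkra*, which encodes PACT, the other RNA-binding partner of Dicer, rose in SNL L5 (0.67, limma adjusted p = 6.27e-08) and fell in sham L5 (-0.45, adjusted p = 4.06e-06). Its difference between the cohorts at L5 was 1.12 (adjusted p = 2.5e-12). *Tsnax*, a subunit of a nuclease that clears the passenger strand, rose in SNL L5 (0.41). *Ptges3*, the p23 cochaperone of Hsp90, fell in SNL L4, at 738 ± 37.0 in ipsilateral and 1009 ± 31.5 in contralateral DRGs (SD, n = 5; -0.44, limma adjusted p = 9.69e-06). It rose in sham L4 (0.39) and sham L5 (0.43), and *Hsp90ab1* rose in sham L5 (0.31).

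Of the precursor and microRNA turnover genes (6 measured), 3 were called higher in SNL L5. These were *Dis3l2* (0.52), an exonuclease for uridylated precursors, *Xrn2* (0.49), a 5′-to-3′ exonuclease, and *Tut4* (0.40), a terminal uridylyltransferase. In sham L5 *Tut7* (-0.36), *Pnpt1* (-0.33) and *Tut4* (-0.28) fell. *Lin28a*, whose product blocks the maturation of let-7, rose in sham L4 (0.51) and sham L5 (0.76), and *Dis3l2* rose in sham L4 (0.36). No gene of this group was called in SNL L4.

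Of the RISC-associated proteins (7 measured), *Snd1* (0.84), a nuclease found with RISC, *Ddx20* (0.79), a helicase that copurifies with Argonaute, and *Fxr1* (0.21) rose in SNL L5. *Fxr1* also rose in SNL L4 (0.23). *Gemin4*, the partner of *Ddx20*, fell in sham L4 (-0.40) and sham L5 (-0.26). Of the other Argonaute and TNRC6 genes (3 measured), none was called in SNL rats, and *Ago3* rose in sham L4 (0.41) and sham L5 (0.45) and *Tnrc6c* in sham L5 (0.20).

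The deadenylation and decapping genes (13 measured) included 7 that were called higher in SNL L5, led by *Pan2* (0.72), *Cnot1* (0.50) and *Edc4* (0.40). *Pan2* is the catalytic subunit of a deadenylase, *Cnot1* is the scaffold of the CCR4-NOT complex that Tnrc6a recruits, and *Edc4* promotes decapping. *Ddx6*, the helicase that joins CCR4-NOT to decapping, went against them. It averaged 596 ± 54.1 in ipsilateral and 834 ± 22.7 in contralateral SNL L5 DRGs (SD, n = 5; -0.48, limma adjusted p = 3.62e-06), and *Lsm1* also fell (-0.20). In SNL L4 *Ddx6* averaged 476 ± 23.1 in ipsilateral and 785 ± 22.1 in contralateral DRGs (SD, n = 5; -0.70, adjusted p = 8.48e-08), and *Cnot7*, a deadenylase subunit, fell as well (-0.47). *Ddx6* rose in sham L5 (0.23), and its difference between the cohorts was -0.73 at L4 (adjusted p = 6.63e-07) and -0.70 at L5 (adjusted p = 7.01e-08).

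In sham rats the lower calls of this group were *Cnot8* (-0.56), *Pan2* (-0.37) and *Cnot1* (-0.21) in L4, and *Cnot6* (-0.49), *Edc3* (-0.47), *Cnot8* (-0.43) and *Cnot1* (-0.25) in L5. *Edc4* rose in sham L4 (0.29). *Cnot1* thus rose in SNL L5 and fell in both sham comparisons, with a difference between the cohorts at L5 of 0.75 (limma adjusted p = 6.43e-06). After scaling to equal medians 10 of the pathway genes were called higher and 8 lower in SNL L5, 1 higher and 10 lower in SNL L4, 3 higher and 31 lower in sham L5, and 4 higher and 20 lower in sham L4. With the GAPDH ratio as a covariate 2 were called in SNL L5, 0 in SNL L4 and 0 in sham L4. That fit called 2 of all 14217 genes in SNL L4.

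**Figure D5:**
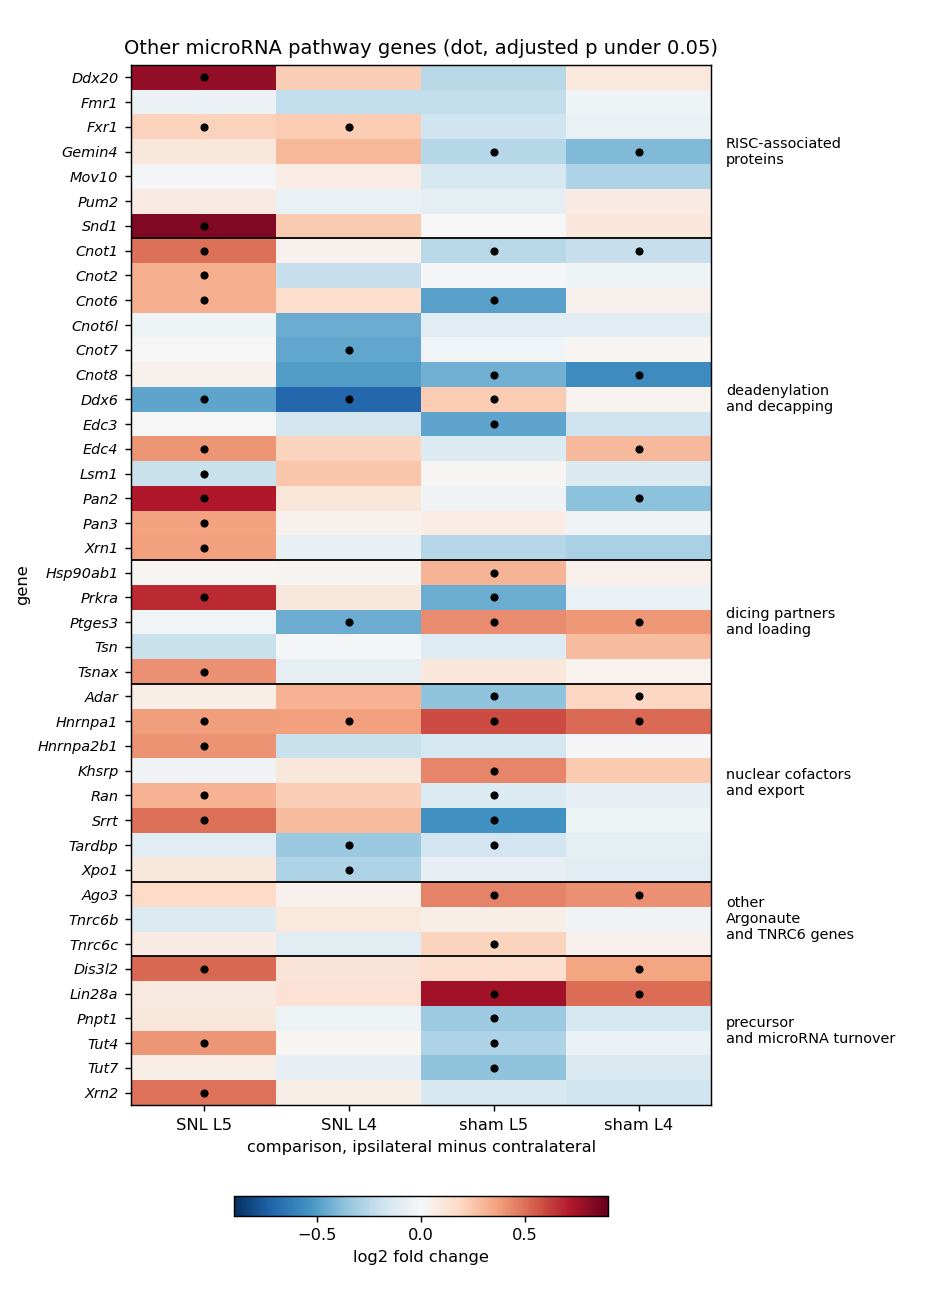
Log2 fold change, ipsilateral minus contralateral, of the 42 other measured genes of the microRNA pathway in the 4 comparisons, in 6 groups by role. Colour gives the log2 fold change and a dot an adjusted p from limma under 0.05. SNL L5 holds 19 higher and 2 lower calls, and *Ddx6* is lower in both SNL columns.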

How the data were processed

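Total RNA of single DRGs was hybridised by the authors to Affymetrix rat 230 2.0 arrays, 40 in all. The deposited values are linear signal intensities made by the authors with MAS 5 (software release not stated in the sources used here). Each array had the same trimmed mean of 99.99 (2% trimmed at each end), and the array medians lay between 28.6 and 55.6. For arrays the number of samples, 5 per group, limits the precision. After 57 control probesets were left out, 31042 were tested as log2(signal + 16), the log2 values being computed here from the deposited intensities. Probesets were named from the platform annotation: 20826 had 1 gene symbol, of which 20758 matched a current symbol, 436 had several and 9780 had none. A gene was represented by its probeset with the highest mean. The rule for named genes took every member and, of the other pathway genes, up to 4 called genes of each role in a comparison by size of the fold change and any called in 3 or more comparisons. *Lsm1* was named after its value was seen.

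Sides were compared within each cohort and segment with limma 3.58.1 in R 4.3.3 (lmFit, and eBayes with an intensity trend), and differences of side effects in fits of 20 arrays, with Benjamini-Hochberg adjustment and a threshold of 0.05. The 4 single comparisons and 3 differences share arrays. Exact permutation tests used scipy 1.17.1, and figures matplotlib 3.10.9. On simulated data with equal spread in every group the fits held their false calls, and with each group's own spread more were made than the adjusted p allows. Rat numbers in the labels pair the sides, since both DRGs came from the same animal. The deviations of paired arrays from their group means correlated at -0.145 to 0.095, so the unpaired fit was kept and the rat as a block was an alternative. That correlation was not computed between L4 and L5 of a rat. Other alternatives were the offset (1 or 64), quantile normalization, equal medians, a filter on probesets under the median, no intensity trend, the methods' t-test, all 8 groups in 1 fit, the mean of all probesets, and leaving out each array. A threshold of 0.01 and the GAPDH ratio as a covariate were chosen after seeing the data. The members, lists and tests were chosen with earlier results of these data known. Probe sequences were not used, so no sequence or position is given.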

Additional observations from a re-analysis of the deposited data

Results flagged for a closer look

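In 5 of 72 groups of 5 arrays (9 genes in 8 groups), 1 array stood apart from the others by Dixon's criterion (ratio above 0.71), where chance gives about 1 in 20. *Tarbp2* had 2 of them. In the ipsilateral L5 DRG of SNL rat 4 it read 53.2, against 75.3 to 82.1 in the others, and in the ipsilateral L4 DRG of SNL rat 48 it read 64.9 (64.85 as deposited), against 102 to 117. *Ddx5* read 1241 in the ipsilateral L4 DRG of SNL rat 18, against 1302 to 1313, a gap that is large only beside the narrow spread of that group. *Drosha* read 232.6 in the ipsilateral L5 DRG of sham rat 14, against 174.7 to 191.3, and *Tnrc6a* read 181.2 in the contralateral L5 DRG of sham rat 17, against 120.5 to 135.8.

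By the brightest probesets, the side effect differed between SNL and sham rats at L5 for *Xpo5* (0.80), *Dgcr8* (0.78), *Ago1* (0.57), *Dicer1* (0.56), *Drosha* (0.42), *Ddx5* (-0.31) and *Ddx17* (-0.36), all on the log2 scale. Over all genes 50.3% were called there, and cohort cannot be told apart from array series. With probesets averaged only *Dgcr8*, which has a single probeset, was still called. The second *Xpo5* probeset was called the other way (-0.47). *Dgcr8* rose on the ipsilateral side in SNL rats and fell in sham rats, with both effects called. Its SNL call was ended by equal medians (adjusted p = 0.183), quantile normalization (0.0783) and the methods' t-test after Benjamini-Hochberg (0.0555). It was also lost by that t-test at an unadjusted p of 0.001, at the threshold of 0.01 and with the GAPDH ratio as a covariate. *Ago1* likewise was called higher in SNL L5 and lower in sham L5, and its sham call was not firm. At L4 the difference was -0.55 for *Ddx5*, which was called lower on the ipsilateral side in SNL rats and higher in sham rats, and 0.62 for *Xpo5*. Over all genes 16.7% were called there. Between L5 and L4 of the SNL rats 25.4% of all genes were called, and segment cannot be told apart from array series. The difference between these segments was 1.12 for *Dicer1*, 0.84 for *Ago1* and 0.27 for *Ddx5*. Of these 3, *Ago1* was called in both segments, with opposite signs.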

How the results depend on the processing

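Of 16 calls of single genes between sides, 4 held under every alternative listed at the outset that could be computed: *Ago1* and *Dicer1* in SNL L5, and *Dgcr8* and *Ddx17* in sham L5. The filter on dim probesets removed the *Dicer1* probeset, so it gave no value there. Of 12 called differences, 3 held: *Dgcr8* between the cohorts at L5, *Ddx5* between the cohorts at L4, and *Ago1* between segments. Of the values not called, 6 of 20 between sides and 7 of 15 differences stayed so under all of these. The cause of the changes below was not tested.

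The number of the 9 microRNA genes called in SNL L5 was 6 and became 3 by the methods' t-test at an unadjusted p of 0.001. In SNL L4 it was 3 and became 1 by that test, 7 in the fit of all 8 groups and 1 with probesets averaged. Over all 14217 genes the SNL L4 count of 2983 became 1304, 5116 and 2510 in the same order. It was 1809 at the threshold of 0.01 and 2 with the covariate. Calls over all genes after quantile normalization and with equal medians are given above. In sham L5 the number of microRNA genes called was 5 and became 3 after quantile normalization, by the t-test and with probesets averaged. In sham L4 it was 2 and became 1 after quantile normalization, 5 with equal medians and 1 with probesets averaged. For the difference between cohorts it was 7 at L5 and became 1 with probesets averaged. At L4 it was 2 and became 4 after quantile normalization and in the fit of all 8 groups, and 1 by the t-test and with probesets averaged. At a threshold of 0.01 the count was 1 in SNL L4, 3 in sham L5, 1 in sham L4 and 1 for the difference at L4. With the GAPDH ratio as a covariate it was 0 in SNL L5, SNL L4 and sham L4, and 1 for the difference at L4. In those comparisons between sides the GAPDH ratios of the sides did not overlap, so the fit can hardly tell side and ratio apart. The standard errors there were wider with the covariate, and most called fold changes were about as large or larger.

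Of the 42 pathway genes, 7 were called in SNL L4, 11 with equal medians, 12 with dim probesets left out, 15 in the fit of all 8 groups, 3 by the t-test and 0 with the covariate. Over all genes the SNL L4 count of 2983 became 2937 with equal medians and 3166 of 8936 with dim probesets left out. It became 5116 in the fit of all 8 groups, 1304 by the t-test and 2 with the covariate. In SNL L5 the pathway count of 21 became 2 with the covariate. In sham L5 the count of 21 became 34 with equal medians and 10 by the t-test. In sham L4 the count of 11 became 24 with equal medians, 4 by the t-test, 5 at the 0.01 threshold and 0 with the covariate.

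The values that changed sign and were called before or after the change were *Ddx5* in SNL L5 with equal medians (-0.144), *Ddx17* in SNL L5 with the covariate (0.09), *Dicer1* in sham L5 after quantile normalization (-0.266), and *Ago1* in sham L5 after quantile normalization (0.025) and in sham L5 and sham L4 with probesets averaged (0.142 and 0.124). With the rat as a block the call of *Ago1* in sham L5 (-0.137) was lost and *Dicer1* between the cohorts at L4 (-0.724) was called, and no other call of a microRNA gene changed.

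Leaving out 1 array gave 5 to 6 members called in SNL L5, 2 to 4 in SNL L4, 3 to 6 in sham L5 and 1 to 4 in sham L4. The lowest counts in the sham comparisons came without the contralateral array of rat 17, and the highest in sham L4 came without the contralateral array of rat 1. The pathway count was 20 to 21 in SNL L5, 5 to 8 in SNL L4, 19 to 23 in sham L5 and 5 to 11 in sham L4, the 5 without the contralateral array of rat 22. It was also 7 in sham L4 when the fit left out either array of rat 14, the contralateral one of rat 17 or the ipsilateral one of rat 22. Dim signals limit some values, and *Dicer1* read 0.547 at its lowest. Of the uncalled values, 7 also changed sign when 1 array was left out, and others did under other settings.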
